A study of Mus musculus with 20 samples.

Results

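The genes described here are Nfe2l2, which encodes the transcription factor NRF2, Keap1, which encodes its inhibitor, and 7 antioxidant genes known as NRF2 targets: Gclc, Gclm, Gsr, Txnrd1, Srxn1, Nqo1 and Hmox1. They were chosen by symbol, 9 of 38784 genes in the counts table, and all 9 had enough counts to be tested in RNA, in ribosome footprints and in their ratio.

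KEAP1 holds NRF2 in the cytoplasm and hands it to a cullin-3 ubiquitin ligase for destruction. When electrophiles or oxidants modify KEAP1, NRF2 escapes, enters the nucleus, pairs with small MAF proteins and binds antioxidant response elements near genes for glutathione synthesis, thioredoxin recycling, quinone reduction and haem breakdown. The liver, which handles drugs and bile pigments, is a tissue where this pathway is well known. NRF2 activity is set largely at the level of the protein, which RNA and footprint counts do not measure.

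Livers came from FVB/N mice 6 to 8 weeks old that had received siRNA in lipid nanoparticles at 0.5 mg/kg by tail vein, 1 injection in 5 days. The control siRNA was a scrambled luciferase sequence, and the other targeted Eif3m, a subunit of the translation initiation factor eIF3, so control animals carried nanoparticles too. There were 3 animals per siRNA at day 9 and 2 per siRNA at day 13, and each liver gave 1 RNA library and 1 library of ribosome footprints, the stretches of mRNA covered by ribosomes. Day 9 RNA libraries were made with KAPA mRNA capture and day 13 RNA libraries with NeoPrep, so a difference of day in RNA and one of kit cannot be told apart, whereas ART-seq was used for footprints on both days.

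Whole liver was ground, so fewer cells of a type and less RNA per cell cannot be told apart. Total counts were 27.4 to 39.02 M for day 9 RNA, 4.96 to 26.4 M for day 13 RNA, 4.50 to 7.69 M for day 9 footprints and 1.64 to 6.52 M for day 13 footprints. Levels are given as CPM, counts per M counts of a library after TMM scaling, and changes as log2 of Eif3m siRNA over control. Eif3m itself had 73.8 to 340 CPM in control RNA libraries and 7.26 to 20.3 CPM in Eif3m siRNA libraries, and 73.8 to 78.7 against 2.45 to 6.75 CPM in footprints. Scaling by library totals alone, without TMM, moved the median log2 change of all genes from -0.00 to 0.12 (day 9 RNA), -0.16 to 0 (day 13 RNA), 0.02 to 0.25 (day 9 footprints) and 0.02 to 0.34 (day 13 footprints). Of the 36 within-day changes of the 9 genes, 10 then had the opposite sign, none of them called.

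The 9 genes did not move together. With Eif3m siRNA, Nqo1 and Keap1 RNA was lower at both days, Hmox1 was higher at day 9 in RNA and footprints, and Srxn1 was higher in day 13 footprints. At an adjusted p below 0.05 (edgeR quasi-likelihood test), 1 of 9 rose and 2 fell in day 9 RNA, where 2.48% of all tested genes rose and 3.19% fell, 5.67% in all. In day 13 RNA 0 rose and 2 fell, against 6.09% and 9.87% of all genes, 16% in all, and 3 of the 9 had an unadjusted p below 0.05. These were Keap1, Nqo1 and Srxn1, the last on 8.5 control and 0.5 Eif3m counts. DESeq2 called no rise among the 9 genes there either. Day 9 footprints had 1 rise and 1 fall, against 6.84% and 7.9% of all genes, 14.7% in all. Day 13 footprints had 1 rise and 0 falls, against 6.12% and 6.26%, 12.4% in all, and 3 of the 9 had an unadjusted p below 0.05. The median log2 change of the 9 genes was 0.00 in day 9 RNA, -0.23 in day 13 RNA, -0.13 in day 9 footprints and -0.07 in day 13 footprints, beside -0.00, -0.16, 0.02 and 0.02 over all genes tested.

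The 2 siRNA groups did not overlap for 4 of 9 genes in day 9 RNA, 1 higher and 3 lower, beside 39.2% of all genes (18.9% higher and 20.3% lower). In day 13 RNA 4 were lower without overlap and 0 higher, beside 47.2% of all genes (18% higher and 29.1% lower). Srxn1 is among these 4, on 8.5 control and 0.5 Eif3m counts. Footprints had 3 such genes at day 9, 1 higher and 2 lower, beside 32% (15.6% and 16.3%), and 5 at day 13, 2 higher and 3 lower, beside 55.3% (28.1% and 27.1%). These shares lie near those of all genes.

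**Figure D1:**
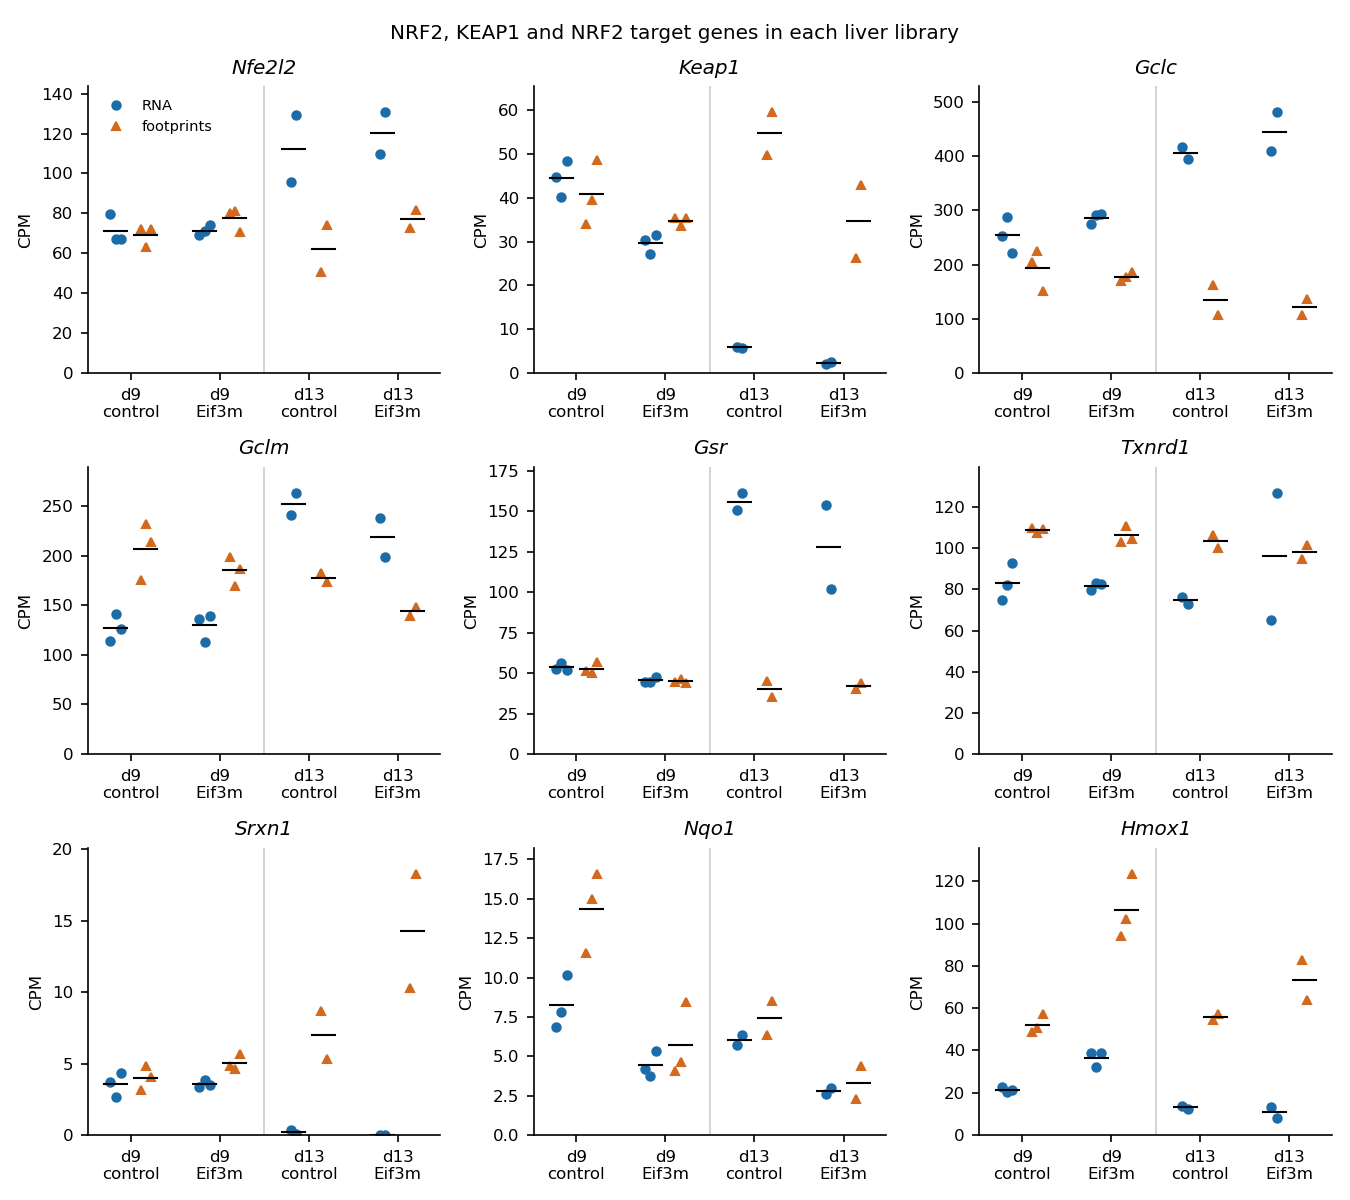
CPM of each of the 9 genes in every library, by day and siRNA, with RNA as circles, footprints as triangles and the mean of a group as a bar. Hmox1 footprints at day 9 lie between 94.1 and 123 CPM with Eif3m siRNA and between 48.7 and 57.3 in controls, whereas Keap1 and Srxn1 RNA sits far lower at day 13 than at day 9 in both siRNA groups.

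**Figure D2:**
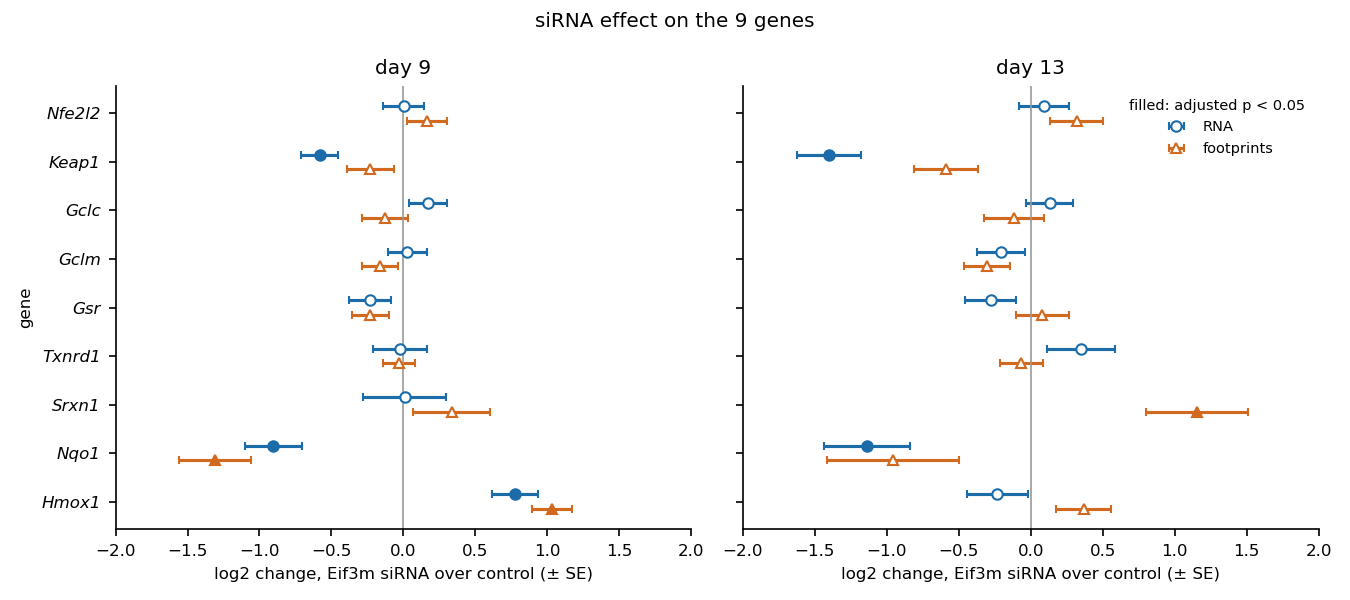
Log2 change with Eif3m siRNA for the 9 genes, with its SE, in RNA (circles) and footprints (triangles) at each day, filled where the adjusted p was below 0.05. Keap1 and Nqo1 RNA lies to the left of 0 at both days and Hmox1 to the right at day 9, and Srxn1 RNA at day 13 is not drawn because it rests on 8.5 and 0.5 counts.

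Promoter sequence shows which of these genes carry a core of the antioxidant response element next to their start, and is given so that the unlike changes of the targets can be read beside it. RefSeq windows from 250 bases before to 50 bases after the start (build GRCm38.p6) were matched for 6 of the 9 genes, in 8 windows. The core TGACNNNGC was searched on both strands, and 12.4% of all 32851 promoter windows hold it. A related core, TGAGNNNGC, was added after the windows had been seen and is held by 17.6% of them; no stretch can match both cores on the same strand. Capitals mark the core, and each sequence is written 5′ to 3′ on the strand of its gene.
Nfe2l2, chr2:75704885-75704913, minus strand, TGACNNNGC: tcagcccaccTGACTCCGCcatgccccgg
Gclm, chr3:122245413-122245441, plus strand, TGACNNNGC on the opposite strand: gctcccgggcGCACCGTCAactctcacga
Txnrd1, chr10:82859104-82859132, plus strand, TGACNNNGC on the opposite strand: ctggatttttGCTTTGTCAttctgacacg
Srxn1, distal, chr2:152105356-152105384, plus strand, TGAGNNNGC on the opposite strand: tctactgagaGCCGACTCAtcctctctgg
Srxn1, proximal, chr2:152105469-152105497, plus strand, TGAGNNNGC: aaattcacccTGAGTCAGCggccgggcgc
The core began 240 bases before the start of Nfe2l2, 134 before Gclm and 92 before 1 of 3 Txnrd1 starts, and the Srxn1 cores lay 158 and 45 bases before its start. Srxn1 also held TGACNNNGC 28 bases after its start, on the opposite strand. The windows of Keap1 and Nqo1 held neither core, which says only that these letters are not in those windows. Of the 4 genes with a printed core, Srxn1 alone was called in any comparison, in day 13 footprints.

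Nfe2l2, the gene of NRF2 itself, was measured at nearly the same level with either siRNA. Its day 9 RNA was 79.6, 67.3 and 67.2 CPM in controls and 69.3, 71.0 and 74.0 CPM with Eif3m siRNA, a log2 change of 0.00 (SE 0.14). Day 9 footprints were 72.0, 63.3 and 72.4 CPM against 80.1, 81.4 and 70.8, a log2 change of 0.16 (SE 0.14, adjusted p = 0.47). The groups overlapped in both.

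Day 13 values of Nfe2l2 came from 2 animals per siRNA. RNA was 95.5 and 129 CPM against 110 and 131 CPM, a log2 change of 0.09 (SE 0.17, adjusted p = 0.76). Footprints were 50.4 and 73.9 CPM against 72.6 and 81.7 CPM, a log2 change of 0.32 (SE 0.19, adjusted p = 0.30), and again the groups overlapped. With scaling by library totals alone this footprint change became 0.64 with adjusted p = 0.025.

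Keap1, which encodes the sensor that targets NRF2 for degradation, had less RNA with Eif3m siRNA at both days. At day 9 its RNA was 44.7, 40.2 and 48.5 CPM in controls and 30.5, 27.1 and 31.6 CPM with Eif3m siRNA. Every Eif3m library was below every control library, and the level fell to 0.668 of control, a log2 change of -0.58 (SE 0.13, adjusted p = 0.019). At day 13 the RNA values were 5.94 and 5.80 CPM against 2.12 and 2.44, a fall to 0.378 of control and a log2 change of -1.40 (SE 0.22, adjusted p = 0.0015).

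Keap1 footprints differed less between the siRNAs. Day 9 values were 34.1, 39.5 and 48.7 CPM against 35.3, 33.6 and 35.3, overlapping, with a log2 change of -0.23 (SE 0.16, adjusted p = 0.38). Day 13 values were 49.8 and 59.6 CPM against 26.3 and 43.0, with no overlap but a change that did not pass, at -0.59 (SE 0.22, adjusted p = 0.092). The day 9 RNA call was lost without control replicate 1 or 3 (adjusted p = 0.059 and 0.11), without Eif3m replicate 1, 2 or 3 (0.078, 0.10 and 0.054) and with scaling by library totals (0.058). The day 13 RNA call was lost when day 13 was fitted alone (0.094), and the day 13 footprint change passed without Eif3m replicate 2, at -1.05 with adjusted p = 0.045.

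Keap1 RNA in controls was 44.5 ± 4.13 CPM (SD, n = 3) at day 9 and 5.87 ± 0.0999 CPM (SD, n = 2) at day 13, 7.57 times lower, whereas its footprints were 40.8 ± 7.36 and 54.7 ± 6.88 CPM. The fall at day 13 thus rests on 245.5 control counts and 48.5 Eif3m counts in all. The day 13 RNA change minus the day 9 change was -0.82 (SE 0.26, adjusted p = 0.12).

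Gclc and Gclm encode the catalytic and modifier subunits of glutamate-cysteine ligase, which makes the first and rate-limiting step of glutathione synthesis. Neither passed the test in any comparison. Gclc RNA at day 9 was 254, 289 and 221 CPM in controls and 276, 292 and 293 CPM with Eif3m siRNA, a log2 change of 0.17 (SE 0.13, adjusted p = 0.52). Its footprints were 205, 226 and 151 CPM against 170, 176 and 187, a log2 change of -0.13 (SE 0.16, adjusted p = 0.65). The groups overlapped in both, and the control animals spread more widely than the Eif3m animals.

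At day 13 Gclc RNA was 417 and 395 CPM against 410 and 482 (log2 change 0.13, SE 0.16, adjusted p = 0.62). Gclc footprints were 162 and 106 CPM against 107 and 137 (log2 change -0.11, SE 0.21, adjusted p = 0.79), and the groups overlapped in both.

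The Gclm RNA values at day 9 were 114, 141 and 126 CPM in controls and 136, 113 and 139 CPM with Eif3m siRNA, a log2 change of 0.03 (SE 0.14, adjusted p = 0.95). Footprints were 175, 232 and 214 CPM against 199, 170 and 186, a log2 change of -0.16 (SE 0.13, adjusted p = 0.43). Both sets overlapped. The day 13 values did not: RNA was 241 and 263 CPM against 238 and 199 (log2 change -0.21, SE 0.17, adjusted p = 0.44) and footprints were 183 and 173 CPM against 140 and 148 (log2 change -0.30, SE 0.16, adjusted p = 0.25).

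Gsr encodes glutathione reductase, which returns oxidised glutathione to its reduced form with NADPH. Its day 9 RNA was 52.3, 56.5 and 51.8 CPM in controls and 44.7, 44.5 and 47.5 CPM with Eif3m siRNA, a log2 change of -0.23 (SE 0.14, adjusted p = 0.41). Day 9 footprints were 51.1, 50.1 and 57.0 CPM against 44.2, 46.5 and 43.9, a log2 change of -0.23 (SE 0.13, adjusted p = 0.25). All Eif3m values lay below all control values in both, yet neither difference passed. With day 9 fitted alone the RNA change had adjusted p = 0.045.

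Day 13 Gsr RNA was 151 and 161 CPM against 154 and 102 (log2 change -0.28, SE 0.18, adjusted p = 0.31), and footprints were 45.2 and 35.1 CPM against 40.0 and 43.9 (log2 change 0.08, SE 0.18, adjusted p = 0.84). The low RNA value belonged to Eif3m replicate 2, the RNA library with the fewest counts, and without Eif3m replicate 1 the RNA change was -0.62 with adjusted p = 0.035. Control Gsr RNA was 2.91 times as high at day 13 as at day 9 while its control footprints were 0.761 times as high, a further case in which RNA measured with the 2 kits moved apart from footprints. In the RefSeq annotation Gclm and Gsr overlap pseudogenes and noncoding genes, so reads from these cannot be told apart unless the counting used strand.

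Txnrd1 encodes cytosolic thioredoxin reductase, the selenoprotein that keeps thioredoxin reduced. Day 9 RNA was 74.9, 81.9 and 92.7 CPM in controls and 79.6, 83.1 and 82.7 CPM with Eif3m siRNA (log2 change -0.02, SE 0.19). Day 9 footprints were 110, 107 and 109 CPM against 103, 111 and 105 (log2 change -0.03, SE 0.11). Controls and Eif3m animals overlapped in both, and the footprint values of all 6 animals were close together.

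At day 13 Txnrd1 RNA was 76.4 and 73.1 CPM against 65.3 and 127, a log2 change of 0.35 (SE 0.24, adjusted p = 0.34), with the high value in Eif3m replicate 2. Footprints were 107 and 99.97 CPM against 94.9 and 102, a log2 change of -0.07 (SE 0.15, adjusted p = 0.84). Without Eif3m replicate 1, which leaves the high library alone in its group, the RNA change was 0.75 with adjusted p = 0.021. Txnrd1 overlaps Eid3 and a long noncoding RNA gene in RefSeq.

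Srxn1 encodes sulfiredoxin, which repairs hyperoxidised peroxiredoxins, and its counts were low throughout. At day 9 its RNA was 3.71, 2.67 and 4.34 CPM in controls and 3.38, 3.85 and 3.52 CPM with Eif3m siRNA, a log2 change of 0.01 (SE 0.29). Day 9 footprints were 3.15, 4.82 and 4.03 CPM against 4.87, 4.64 and 5.68, a log2 change of 0.34 (SE 0.27, adjusted p = 0.44). Both sets overlapped.

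In day 13 footprints Srxn1 rose. Control values were 8.69 and 5.32 CPM, from 15 and 10 counts, and Eif3m values were 10.3 and 18.3 CPM, from 18 and 134 counts. The groups did not overlap, and the level rose 2.23-fold, a log2 change of 1.15 (SE 0.36, adjusted p = 0.038). The higher Eif3m value came from replicate 2, and without that library the adjusted p was 0.62. The call was also lost without day 13 control replicate 1 (0.069) or replicate 2 (0.32), and with DESeq2 (0.094).

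Srxn1 RNA at day 13 amounted to 7.5 and 1 expected counts in controls and 0.5 and 0 with Eif3m siRNA. At this depth no difference can be read from it, and no fold change is given. Footprints of Srxn1 were thus measured where its RNA was hardly counted: control RNA went from 3.58 ± 0.847 CPM (SD, n = 3) at day 9 to 0.214 ± 0.235 CPM (SD, n = 2) at day 13, and control footprints from 4.00 ± 0.832 to 7.004 ± 2.39 CPM.

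Nqo1 encodes a cytosolic quinone reductase and is widely read as an NRF2 target. It was lower with Eif3m siRNA in every comparison of groups, called in 3 of 4. Day 9 RNA was 6.86, 7.82 and 10.2 CPM in controls and 4.21, 3.74 and 5.35 CPM with Eif3m siRNA, without overlap. The level fell to 0.534 of control, a log2 change of -0.91 (SE 0.20, adjusted p = 0.019). Day 9 footprints were 11.6, 15.004 and 16.6 CPM against 4.06, 4.64 and 8.44, also without overlap. They fell to 0.404 of control, a log2 change of -1.31 (SE 0.25, adjusted p = 0.0012).

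On day 13, Nqo1 RNA was 5.71 and 6.33 CPM in controls and 2.59 and 3.01 CPM with Eif3m siRNA, a fall to 0.454 of control and a log2 change of -1.14 (SE 0.30, adjusted p = 0.021). Footprints were 6.37 and 8.51 CPM against 2.29 and 4.36, a log2 change of -0.96 (SE 0.46, adjusted p = 0.20) that did not pass, with 11 and 16 control counts and 4 and 32 Eif3m counts. Neither set overlapped. The day 9 footprint call held when each of the 10 footprint libraries was left out and under all 7 other settings. In RNA the day 9 call was lost without control replicate 2 or 3 (adjusted p = 0.057 and 0.11) or Eif3m replicate 1 or 2 (0.093 and 0.11), and the day 13 call without Eif3m replicate 1 or 2 (0.16 and 0.059) or with day 13 fitted alone (0.18).

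Hmox1 encodes haem oxygenase 1, which breaks haem down to biliverdin, iron and carbon monoxide, and is strongly expressed in macrophages that clear red cells. Its day 9 RNA was 22.5, 20.3 and 21.3 CPM in controls and 38.6, 32.1 and 38.9 CPM with Eif3m siRNA. Every Eif3m value lay above every control value, a 1.71-fold rise and a log2 change of 0.77 (SE 0.16, adjusted p = 0.014). Day 9 footprints were 48.7, 50.7 and 57.3 CPM against 94.1, 102 and 123, a 2.04-fold rise and a log2 change of 1.03 (SE 0.14, adjusted p = 5.7e-05). Here too the groups were apart, and the footprint call held when each footprint library was left out and under all 7 other settings. In RNA it was lost without control replicate 3 (adjusted p = 0.051) or Eif3m replicate 1 (0.0502).

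Neither Hmox1 measure passed at day 13. RNA was 13.9 and 12.5 CPM against 13.3 and 8.26, overlapping, a log2 change of -0.23 (SE 0.21, adjusted p = 0.49). Footprints were 54.5 and 57.4 CPM against 82.9 and 63.8, a log2 change of 0.37 (SE 0.19, adjusted p = 0.24) without overlap. With library totals alone that change was 0.69 with adjusted p = 0.011.

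Whether the Hmox1 change differed between the days was tested directly. The day 13 change minus the day 9 change was -1.01 in RNA (SE 0.26, adjusted p = 0.081) and -0.66 in footprints (SE 0.24, adjusted p = 0.24), so neither passed. Of all genes, 1.23% had a called difference in RNA (0.341% higher, 0.888% lower) and 0.819% in footprints (0.221% higher, 0.598% lower). In RNA the difference passed with DESeq2 (adjusted p = 0.015), with no filter on low counts (0.017) and without day 13 control replicate 2 (0.021) or day 13 Eif3m replicate 1 (0.045). The other 8 genes had 0 calls in these differences with edgeR and with DESeq2. At an unadjusted p below 0.05 there were 3 of 9 genes in RNA (Keap1, Srxn1 and Hmox1) and 1 in footprints (Hmox1). For Srxn1 the day 13 RNA rests on 8.5 control and 0.5 Eif3m counts.

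At day 9 the summed level of markers of monocytes and other macrophages was higher in the libraries in which Hmox1 was higher, and that of Kupffer cell markers was lower. Stellate cell marker sums were also higher in day 9 footprints, at 396 to 446 CPM in controls and 472 to 563 with Eif3m siRNA. In day 9 RNA they overlapped. The sums of sinusoidal endothelial and cholangiocyte markers overlapped in both at day 9. Summed over 6 markers of monocytes and other macrophages, day 9 RNA was 34.5 to 45.0 CPM in controls and 64.3 to 72.8 with Eif3m siRNA, and footprints were 60.7 to 66.7 against 134 to 154 CPM. Of these markers 1 of 6 tested rose in RNA (Lyz2) and 3 of 5 in footprints (Lyz2, Itgam and Cd68), with none lower. At day 13 the sum was 122 to 147 against 78.3 CPM in both Eif3m libraries for RNA, and 115 to 118 against 106 to 119 CPM for footprints. There 1 rose (Itgam) and 3 fell in RNA, and 1 rose (Itgam) and 2 fell in footprints, while Hmox1 was not called.

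Kupffer cells are the resident liver macrophages. The sum of 8 of their markers was 293 to 350 CPM in day 9 control RNA and 161 to 201 with Eif3m siRNA, and 408 to 507 against 321 to 365 CPM in footprints. In day 9 RNA 5 of 8 fell and in footprints 4 of 8, among them Clec4f, Vsig4, Cd163 and Folr2, and 0 rose. At day 13, 6 of 8 fell in RNA and 3 of 8 in footprints, and 0 rose. At day 13 the sum was 142 to 205 against 51.3 to 52.0 CPM in RNA and 335 to 385 against 189 to 209 CPM in footprints. None of the markers of either list was at 0 in any group. Their part in the Hmox1 result was not tested.

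**Figure D3:**
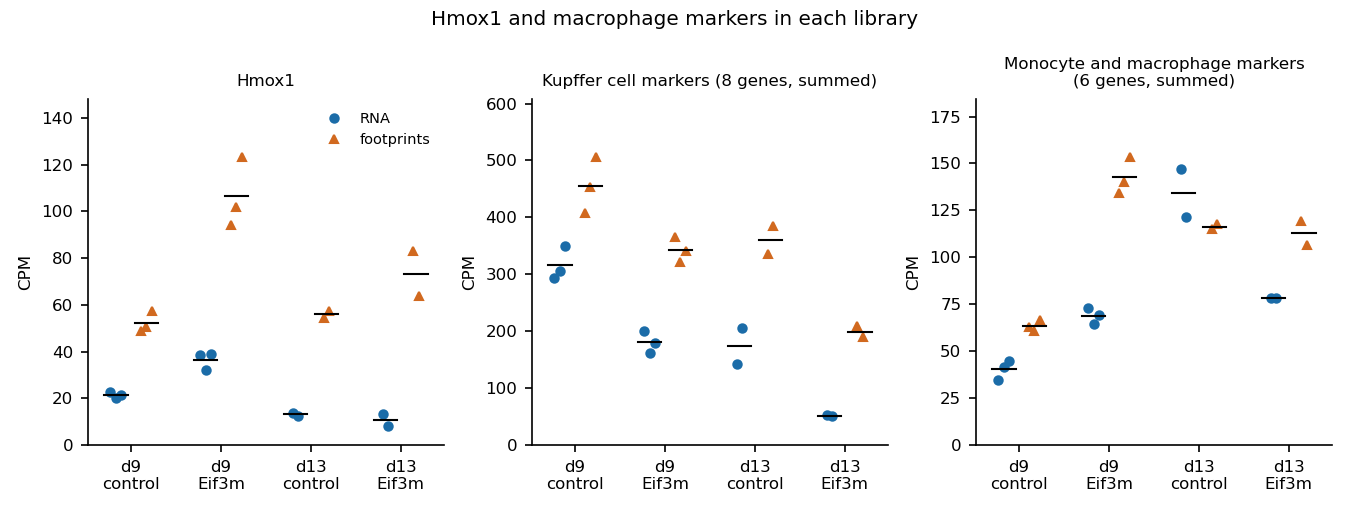
CPM of Hmox1 and the summed CPM of 8 Kupffer cell markers and 6 monocyte and macrophage markers in every library, by day and siRNA, with RNA as circles, footprints as triangles and bars for means. At day 9 Hmox1 and the monocyte and macrophage sum are both higher with Eif3m siRNA in RNA and footprints, and the Kupffer sum is lower.

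Red cell markers had 0 of 7 genes called by edgeR in day 9 RNA and 0 of 6 in day 9 footprints, and 0 had an unadjusted p below 0.05 in either. Their sum was 753 to 975 CPM in day 9 control RNA and 476 to 856 with Eif3m siRNA, and 367 to 475 against 251 to 436 CPM in footprints. At day 13, 6 of 7 fell in RNA (median log2 change -2.32) and 1 of 6 in footprints (median -1.84), and all of those tested had an unadjusted p below 0.05. The day 13 sums were 1782 and 476 CPM in control replicates 1 and 2 against 195 and 173 in RNA, and 5199 and 1645 against 1245 and 699 in footprints, so control replicate 1 stood apart. Without the RNA library of day 13 control replicate 1 the day 13 RNA calls of Keap1 and Nqo1 remained. Control replicate 2 also lay above both Eif3m libraries in these sums, so leaving out replicate 1 keeps the siRNA groups apart in red cell markers. The part of red cells in the day 13 results was not tested.

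Hepatocyte markers, led by Alb, summed to 138484 to 145639 CPM in day 9 control RNA and 100773 to 111595 with Eif3m siRNA, and to 166086 to 200334 against 107024 to 129325 in footprints. At day 13 these sums were 253763 to 292768 against 143072 to 202059 CPM in RNA and 237646 to 240029 against 117907 to 148182 in footprints. Of 6 hepatocyte markers, 1 fell in day 9 RNA and 2 in each of the other 3 comparisons, with 0 higher. The sums follow the most abundant markers: in day 9 RNA 3 of the 6 had log2 changes above 0 and 3 below, with a median of -0.10, beside -0.43 for Alb. The medians were -0.27 in day 9 footprints, -0.52 in day 13 RNA and -0.43 in day 13 footprints. Their part in the falls of Keap1 and Nqo1 was not tested.

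Translational efficiency compares the change in footprints with that in RNA within 1 model. It was called for 0 of 9 genes at day 9, at day 13 and for the difference between the days, beside 0%, 0.0211% (0.00702% higher, 0.014% lower) and 0% of all genes. DESeq2 and limma also called 0 of 9 in each. At an unadjusted p below 0.05 there were 0 genes at day 9, 2 at day 13 (Keap1 and Srxn1) and 1 in the difference (Srxn1). Keap1 had an efficiency change of 0.34 (SE 0.21, adjusted p = 1) at day 9 and 0.75 (SE 0.34, adjusted p = 0.46) at day 13, and Srxn1 at day 13 has no usable RNA denominator.

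The log2 ratio of footprint to RNA in each animal, with 0.5 CPM added to both, gives the values behind these fits. For Hmox1 at day 9 it was 1.10, 1.30 and 1.41 in controls and 1.27, 1.65 and 1.65 with Eif3m siRNA, which overlap. For Nqo1 at day 9 it was 0.71, 0.90 and 0.68 against -0.05, 0.28 and 0.61, without overlap, and the fitted efficiency change was -0.42 (SE 0.34, adjusted p = 1). For Gclc at day 9 it was -0.30, -0.35 and -0.55 against -0.70, -0.72 and -0.65, also apart, with a fitted change of -0.31 (SE 0.23, adjusted p = 1).

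Another 2 genes had day 9 ratios that did not overlap. Keap1 was higher with Eif3m siRNA, at -0.38, -0.03 and 0.01 in controls against 0.21, 0.31 and 0.16. Gclm was lower, at 0.62, 0.71 and 0.76 against 0.54, 0.59 and 0.42, with a fitted change of -0.20 (SE 0.19, adjusted p = 1). In all, 4 of 9 genes did not overlap at day 9, 1 higher and 3 lower, beside 16.6% of all genes (9.18% higher and 7.39% lower). At day 13 these were 4 of 9, all higher (Nfe2l2, Keap1, Hmox1 and Srxn1), beside 38.2% of all genes (25.4% higher and 12.7% lower). Srxn1 RNA was hardly counted there, so its ratio rests on the 0.5 CPM added and cannot be read.

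For Keap1 and Gsr these ratios lay further apart between the days than between the siRNAs. Control ratios of most of the other genes lay apart between the days too. The Keap1 ratio in day 13 controls was 2.97 and 3.25, above the day 9 values just given. The Gsr ratio was -0.03, -0.17 and 0.14 against -1.73 and -2.18. For Nfe2l2 it was -0.14, -0.09 and 0.11 in day 9 controls against -0.91 and -0.80 at day 13. Day 13 control ratios were -1.37 and -1.89 for Gclc, -0.40 and -0.60 for Gclm and 0.15 and 0.40 for Nqo1. All of these lay below the day 9 control values of the same gene. For Hmox1 they were 1.93 and 2.16, above its day 9 control values. Txnrd1, by contrast, had 0.55, 0.39 and 0.23 against 0.48 and 0.45. The RNA kit differs between these days, so levels of RNA and ratios at day 9 and day 13 are set side by side only.

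**Figure D4:**
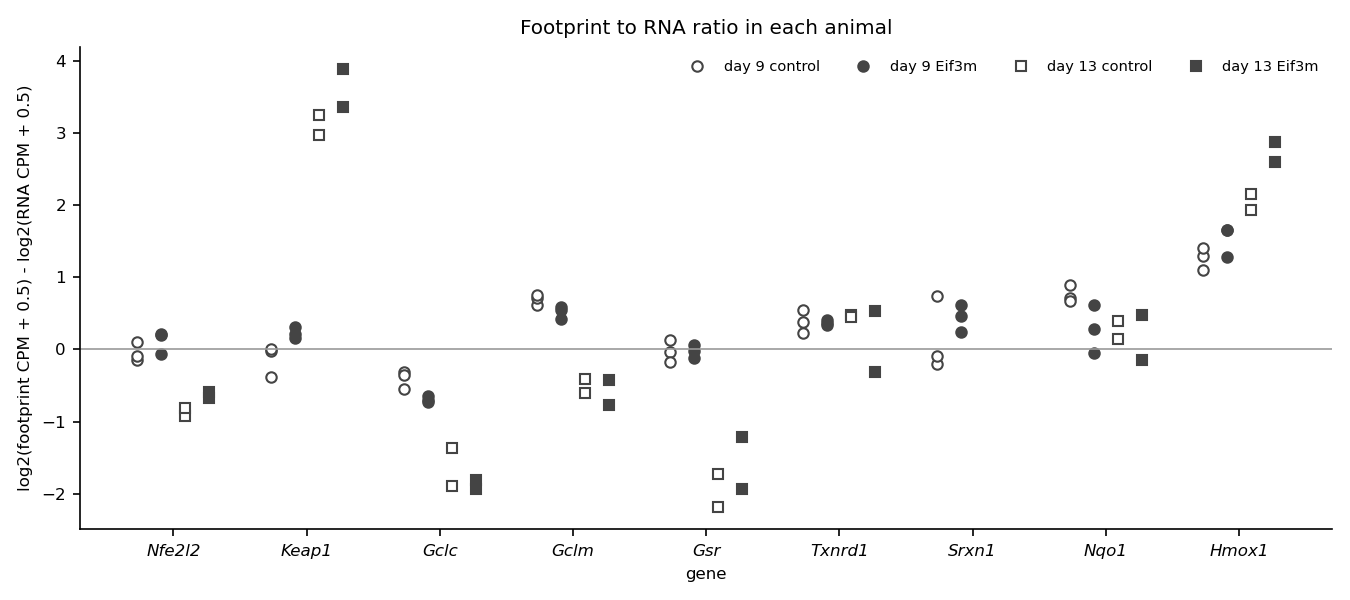
Log2 ratio of footprint to RNA CPM, each with 0.5 added, for the 9 genes in every animal, with circles for day 9, squares for day 13, open symbols for control and filled for Eif3m siRNA. Day 13 ratios of Keap1 lie between 2.97 and 3.88 and day 9 ratios between -0.38 and 0.31; Srxn1 at day 13 is left out for its low RNA counts.

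The wider NRF2 pathway was counted over 48 further genes, of which 46 were tested in RNA and 45 in footprints. In day 9 RNA 12 fell and 0 rose, beside 3.19% of all genes lower and 2.48% higher. In day 13 RNA 16 fell and 3 rose, beside 9.87% of all genes lower and 6.09% higher. Footprints had 16 falls and 2 rises at day 9, beside 7.9% of all genes lower and 6.84% higher. At day 13 they had 10 falls and 5 rises, beside 6.26% lower and 6.12% higher. These shares of all genes also stand beside the marker counts above and the counts by role below. The median log2 change of the list was -0.34 and -0.56 in RNA and -0.25 and -0.23 in footprints, beside -0.00, -0.16, 0.02 and 0.02 over all genes. With library totals alone the counts were 9 lower and 2 higher, 12 and 5, 9 and 9, and 3 and 7, in the same order. The shares of all genes called with that scaling are not given here. The medians of the list became -0.20, -0.36, -0.01 and 0.09, beside 0.12, 0, 0.25 and 0.34 over all genes with that scaling. Day 9 RNA falls numbered 4 without Eif3m replicate 2, 5 without Eif3m replicate 1 or control replicate 3, 8 without control replicate 1, up to 18 without a day 13 control library and 25 with day 9 fitted alone. Day 13 RNA had 6 falls and 0 rises among 43 tested with that day fitted alone, and 8 falls without day 13 Eif3m replicate 2. Day 13 footprint falls numbered 4, 5, 6 and 3 without day 13 control replicate 1 and 2 and Eif3m replicate 1 and 2, and 15 without day 9 Eif3m replicate 1. The hepatocyte marker sums given above were lower in the same Eif3m libraries. The 6 markers had median log2 changes of -0.10 and -0.52 in RNA and -0.27 and -0.43 in footprints, at day 9 and day 13. Their part in these falls was not tested.

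Among 8 regulators and partners of NRF2, Sqstm1, which encodes the autophagy adaptor p62 that binds KEAP1, rose in footprints at both days. Its footprints were 326 to 346 CPM in day 9 controls and 417 to 497 CPM with Eif3m siRNA, a log2 change of 0.47 (SE 0.12, adjusted p = 0.013). They were 372 to 428 against 728 to 866 CPM at day 13, a log2 change of 1.00 (SE 0.15, adjusted p = 0.00020). Sqstm1 RNA had log2 changes of 0.46 (SE 0.19, adjusted p = 0.20) and 0.63 (SE 0.24, adjusted p = 0.099), which did not pass. Mafg, a small MAF partner, fell by 0.80 on the log2 scale in day 9 footprints. Cul3, the scaffold of the ligase that KEAP1 serves, changed by 0.55 in day 13 RNA. Mean Cul3 footprints, not called, were 41.5 CPM in controls and 35.35 with Eif3m siRNA at day 9, and 29.6 against 24.9 at day 13. Nfe2l1, a relative of NRF2 that governs proteasome genes, changed by -0.57 in day 13 RNA, a call lost with DESeq2 size factors (adjusted p = 0.058) and library totals (0.16). The Mafg call was lost with library totals (0.077) and with the DESeq2 test. The day 13 RNA calls of Cul3 and Nfe2l1 were lost with that day fitted alone. Bach1, the repressor that competes with NRF2 at Hmox1, passed in no comparison (0.29, -0.38, 0.21 and 0.32 for RNA and then footprints at day 9 and day 13).

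Of the glutathione genes, 5 of 10 tested fell in day 9 RNA and 5 of 9 in day 9 footprints, with none higher, and at day 13 there were 3 falls and 1 rise in RNA and 2 of each in footprints. On library totals the footprint counts became 3 falls and 2 rises at day 9 and 0 falls and 2 rises at day 13, and day 9 RNA had 3 falls and 1 rise. Gsta4, a transferase that conjugates lipid peroxidation products, fell by 0.94 and 0.74 on the log2 scale in RNA at day 9 and day 13 and by 1.18 and 0.64 in footprints. Glrx, glutaredoxin 1, fell by 0.99 and 1.82 in RNA and by 0.91 and 0.86 in footprints. On library totals the edgeR day 13 calls of Gsta4 were lost in RNA (adjusted p = 0.052) and footprints (0.19). That of Glrx in day 13 footprints was lost too (0.085). Gsta3, a further transferase, fell at day 9 by 0.70 in RNA and 0.89 in footprints. Gstp1, another transferase, rose at day 13 by 0.65 in RNA and 0.93 in footprints. Gss, a gene of glutathione synthesis, had mean RNA of 74.7 CPM in controls and 106 with Eif3m siRNA at day 9, and 43.2 against 65.9 at day 13. Its mean footprints were 63.2 against 81.0 CPM at day 9 and 79.2 against 119 at day 13. Of these Gss differences only the day 13 footprint rise was called, beside that of Gstp1. Transferases have near-identical copies, so how their reads were divided is uncertain.

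Of 8 thioredoxin and peroxiredoxin genes, 2 fell in day 9 RNA, 4 in day 13 RNA, 5 in day 9 footprints and 3 in day 13 footprints, and 0 rose, whereas on library totals the footprints had 1 fall and 1 rise at day 9 and 0 falls and 1 rise at day 13. DESeq2 found 6, 4, 5 and 4 falls and 0 rises in these comparisons. Txn1, thioredoxin itself, fell by 0.77 and 0.84 in RNA and by 0.74 and 0.65 in footprints. Its reductase gene Txnrd1 was not called in any of these comparisons. Prdx1, a peroxiredoxin, fell by 0.50 in day 9 footprints. Prdx6 fell by 1.15 in day 13 RNA and by 0.52 and 0.63 in footprints at day 9 and day 13, and Cat, catalase, fell by 0.92, 0.50 and 0.69 in the same comparisons. On library totals the edgeR footprint calls of Prdx1, Prdx6 and Cat were lost, as was that of Txn1 at day 13 (adjusted p from 0.076 to 0.19).

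The 6 genes of NADPH supply had 2 falls in day 9 RNA, 4 in day 13 RNA, 2 in day 9 footprints and 3 in day 13 footprints, and 0 rises. DESeq2 gave 3, 4, 2 and 3 falls and library totals 2, 3, 2 and 2 in these comparisons, with 0 rises in either. Idh1, cytosolic isocitrate dehydrogenase, fell by 0.83 and 1.05 in RNA and by 0.97 and 1.32 in footprints. Pgd, of the pentose phosphate pathway, fell by 0.77 and 1.75 in RNA and by 0.74 and 0.95 in footprints. Tkt and Taldo1, of the same pathway, fell by 1.05 and 0.66 in day 13 RNA, and Tkt by 0.66 in day 13 footprints. The Taldo1 call was lost with DESeq2 size factors (adjusted p = 0.053) and library totals (0.14), and the Tkt footprint call with library totals (0.18).

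Among 9 genes of detoxification and export, 3 fell in RNA at each day, and 3 fell and 1 rose in day 9 footprints, and 2 fell and 1 rose in day 13 footprints. Abcc3, a basolateral exporter of conjugates, fell by 1.10 and 1.65 in RNA and by 0.90 and 1.31 in footprints. Ugdh, which makes the sugar donor for glucuronidation, fell by 0.84 in day 9 RNA and by 1.05 and 0.77 in footprints at day 9 and day 13. Aox1, aldehyde oxidase, fell by 0.52 and 0.75 in RNA and by 0.62 in day 9 footprints, and Cbr1, a carbonyl reductase, fell by 0.92 in day 13 RNA. With library totals the edgeR calls of Aox1 in day 9 RNA (adjusted p = 0.099) and Ugdh in day 13 footprints (0.091) were lost.

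Of 5 haem and iron genes, edgeR called 0 at day 9, where 1 in RNA and 2 in footprints had an unadjusted p below 0.05, and DESeq2 called 1 lower in RNA and 2 higher in footprints. Hmox2, the constitutive haem oxygenase, rose by 0.70 in day 13 RNA and 0.87 in day 13 footprints, and Ftl1, ferritin light chain, fell by 0.97 in day 13 RNA, a call lost with DESeq2 size factors (adjusted p = 0.062) and library totals (0.11). All 53 calls of the pathway genes named by adjusted p kept their direction under both other scalings. Of these, 37 were still called on library totals and 50 on DESeq2 size factors.

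**Figure D5:**
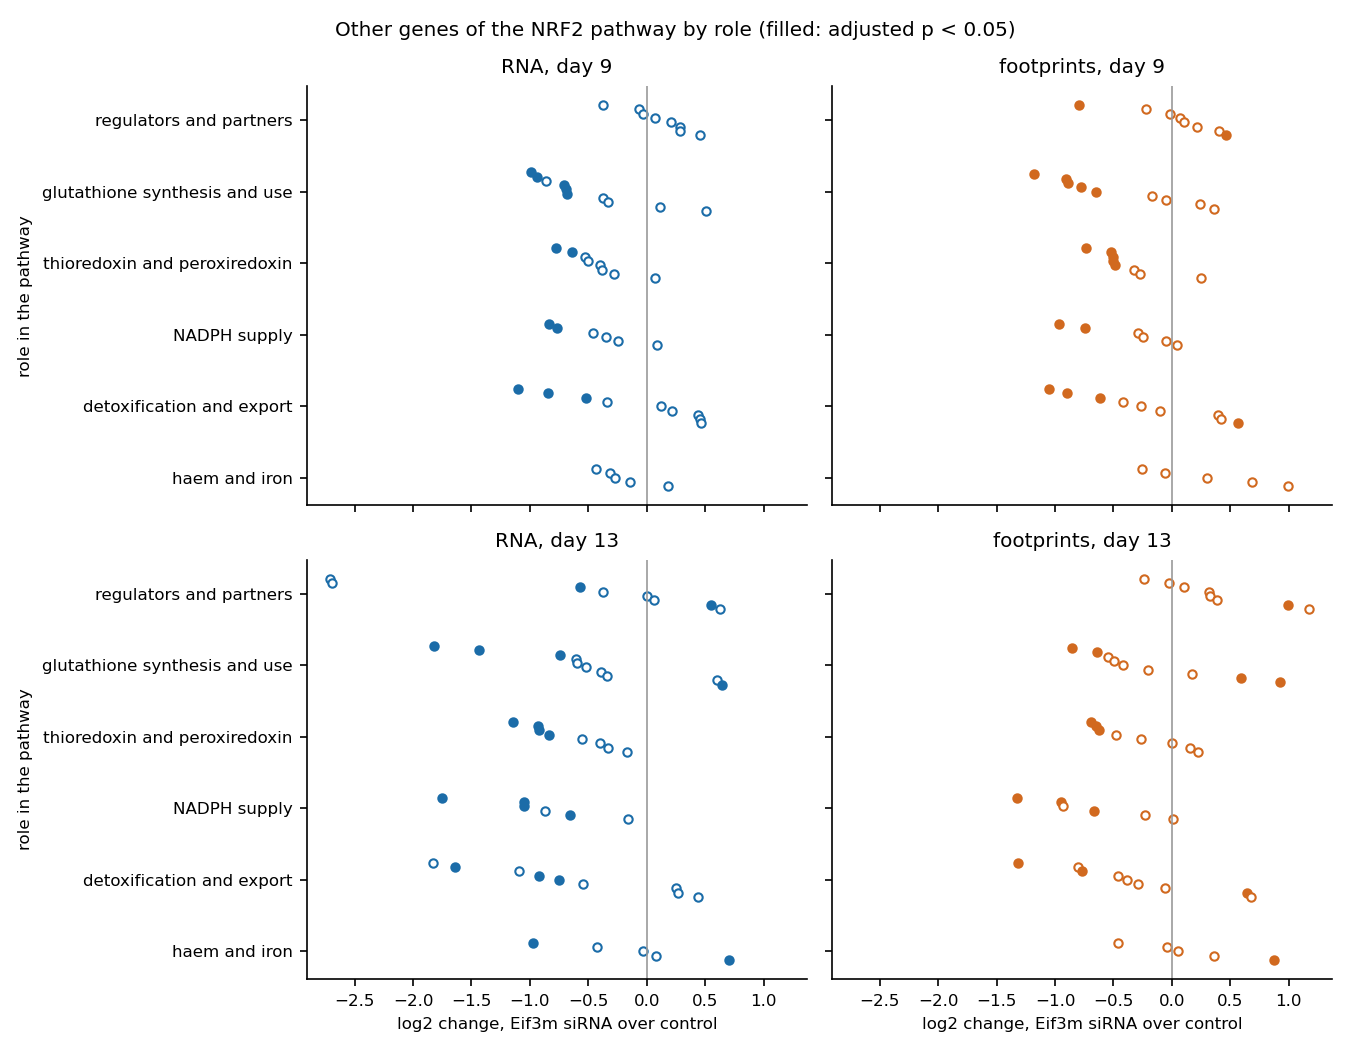
Log2 change with Eif3m siRNA of the tested genes of the pathway other than the 9, grouped by role, in RNA and footprints at each day, filled where the adjusted p was below 0.05. Most filled points of the glutathione, thioredoxin and NADPH groups lie to the left of 0, and in day 9 footprints 16 genes are filled to the left and 2 to the right.

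The 9 genes also differed in how they varied across the footprint libraries. Over the 10 footprint libraries, on log2 CPM minus the mean of the day, Pearson r between pairs of the 9 ran from -0.758 (Nqo1 with Hmox1) to 0.764 (Keap1 with Nqo1) over 36 pairs. These libraries share the siRNA contrast, so such values describe the siRNA effect along with other variation. Among 8716 genes, the closest to Nqo1 was Cnn3 (r = 0.984), the closest to Hmox1 was Eif1 (0.965), the closest to Keap1 was Esr1 (0.961) and the closest to Nfe2l2 was Rce1 (0.960). For Srxn1 it was Rassf1 (0.976), for Gsr Psmb3 (0.960), for Gclm Rdh1 (0.950), for Txnrd1 Slc41a2 (0.935) and for Gclc Edrf1 (0.913). Each closest gene has the highest of 8716 values of r over 10 libraries, so its r is high by selection. None of the 9 was among the 3 closest genes of another, which with so many genes to choose from says little.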

How the data were processed

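RNA-seq and ribosome profiling libraries of 10 livers, 20 in 8 groups, were analysed from 1 deposited table of the authors' expected counts, with a row per gene symbol. Cutadapt, Bowtie and Bowtie2 are named per the submitters' processing notes. Not given in the sources used here are their versions, the genome build, the strand setting and how reads were counted. Among nonzero deposited values, 44.3% are not whole numbers, and counts were rounded for the tests.

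RNA and footprints were fitted separately, and efficiency as footprint change minus RNA change over all 20 libraries, in R 4.3.3 with edgeR 4.0.16 (filterByExpr, TMM, robust quasi-likelihood F test, two-sided, Benjamini-Hochberg over all genes tested, threshold 0.05). For CPM, each library total was multiplied by its TMM factor. Eif3m siRNA was set against control siRNA within each day, and the 2 changes against each other, in RNA, footprints and efficiency (9 comparisons). The edgeR fits of RNA, footprints and efficiency were run on simulated data that held known changes at day 9 and day 13, and the rates found are not given here. The difference between days and the alternative settings were not checked in this way. With 3 animals against 3 an exact permutation test of 1 gene cannot go below p = 0.1, so p-values come from models sharing spread across genes, and they measure the spread between these animals. Replicates of a group had r from 0.981 to 0.998 and varied beyond counting error. Animal codes in the labels tie the RNA and footprint libraries of an animal, whose deviations from group means had r from 0.0922 to 0.373.

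The 9 genes, the 48 pathway genes and the markers were chosen with earlier results of these data known. All 9 are named. Pathway genes are named where called within a day, at most 4 per role by adjusted p. Exceptions are Bach1, not called but named for its role at Hmox1, and Gss, called higher in day 13 footprints but outside those 4 of its role. Both were added after their values were seen. The 3 genes closest to each of the 9 were sought among those with at least 5 footprint CPM on average. A group at or under 3 counts was given no fold change.

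Alternatives were scaling by DESeq2 size factors or by library totals, testing every gene with 1 count or only those averaging 5 CPM or more, the DESeq2 1.42.0 test, separate fits by day, blocking on replicate number or animal, limma 3.58.1 for efficiency, and each library left out in turn, a lone library then being assumed to vary like the other groups.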

Additional observations from a re-analysis of the deposited data

How the results depend on the processing

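Of the 81 changes (9 genes, 9 comparisons), the call held in 576 of the values under other settings and in 786 with a library or animal left out. These counts include uncalled changes whose sign differed. Another 11 and 24 crossed the threshold, and none that was called reversed. The number of the 9 genes called moved by over 1.5 times as follows. In the RNA difference between days it went from 0 to 1 with no filter and to 1 with DESeq2. In day 13 RNA it went from 2 to 0 with the day fitted alone. In day 13 footprints it went from 1 to 3 with library totals, to 0 with DESeq2 and to 0 with a replicate block. Leaving out each library gave 0 to 3 calls in day 9 RNA, 1 to 3 in day 13 RNA, 0 to 2 in the RNA difference, 0 to 1 in day 13 footprints and 0 to 1 in day 13 efficiency. Replicate numbers did not pair control and Eif3m animals (r of same-numbered deviations between -0.11 and 0.22), and blocking by replicate changed, among the 9 genes, the Srxn1 call in day 13 footprints (adjusted p = 0.088) and no other. The animal block changed no call in efficiency. Depth limits Srxn1 in RNA and Nqo1 and Srxn1 in footprints at day 13, where control libraries had 16 counts or fewer of either gene.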
